A study of Mus musculus with 16 samples.

Results

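The genes described here are 10 nuclear regulators of mitochondrial and fatty acid metabolism: the coactivators Ppargc1a, Ppargc1b and Perm1, the nuclear receptors Esrra, Esrrb, Esrrg and Ppara, the nuclear respiratory factors Nrf1 and Gabpa, and the mitochondrial transcription factor Tfam. They were taken by name from a table of RNA-Seq read counts, in which each symbol matched 1 of 55487 Ensembl genes. All 10 passed the filter on low counts, which left 18275 genes for testing. The libraries came from the heart apex of 16 male mice, with 4 mice in each of 4 groups, named for genotype (Ctrl or KO) and operation (sham or TAC). KO mice lack Cardinal (Gm12295), a long noncoding RNA of cardiomyocytes, after CRISPR/Cas9 deletion in the whole animal, and the labels call the Ctrl genotype WT. TAC, transverse aortic constriction, ties the aorta over a needle so that the left ventricle pumps against a narrowed vessel, and sham mice had the operation without the tie. All hearts were collected 4 weeks after surgery and the age of the mice is not given in the sources used here.

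PGC-1 coactivators have no DNA-binding domain of their own and act by joining transcription factors, among them the estrogen-related receptors (ERRs) and PPAR alpha. ERRs drive genes of the tricarboxylic acid cycle and oxidative phosphorylation, and PPAR alpha, activated by fatty acids, drives genes of fatty acid uptake and oxidation. NRF1 and GABPA (also named NRF2 alpha) act on nuclear genes of the respiratory chain and on Tfam, whose protein is needed to transcribe and maintain mitochondrial DNA. The adult heart draws most of its ATP from these pathways, which makes the network a common subject in studies of pressure overload.

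Library totals ranged from 53169437 to 79404714 counts. Cardinal itself was at 3.24 to 3.86 CPM (read counts scaled to equal library totals) in the Ctrl sham libraries, 0.297 to 0.553 CPM in the KO sham libraries and 0.276 to 0.371 CPM in KO TAC 1, 2 and 3. Ctrl TAC 1 to 4 had 8.02, 2.69, 3.04 and 3.37 CPM, so that Ctrl TAC 1 was far above every other Ctrl library. The library labelled KO TAC 4 had 377 counts of Cardinal, or 4.55 CPM, so its Cardinal level goes against its label. Changes of the 10 members after TAC in KO hearts, most of their differences from Ctrl TAC hearts and the counts of partner and target lists are therefore given with and without it. Ctrl TAC 2 also stood apart, with 98 counts of Ucp1, 121 of Myh4 and 55 of Myl7, markers of brown fat, skeletal muscle and atrium, where the other 15 libraries had at most 10, 14 and 9. Of the other markers listed for these tissues, Elovl3, Myh1, Myh2, Tnnt3 and Sln were also highest in Ctrl TAC 2. Cidea, Mylpf, Myl4 and Myl1 were higher in other libraries, and Otop1 was as high in others. The animal numbers in the sample titles form a series that starts with 3 and another that starts with 25 (KO TAC 4 and Ctrl TAC 2, 3 and 4), and the first includes 4 numbers that start with 33 (Ctrl sham 4 and KO sham 1, 2 and 3). What these numbers stand for is not given, and model terms for the 25 series and the 33 range were among the alternatives. No sham library is in the 25 series and no TAC library in the 33 range, so both terms are largely confounded with surgery. Both are also uneven between genotypes, as the 25 series holds Ctrl TAC 2, 3 and 4 but only KO TAC 4 among KO libraries. The 33 range holds KO sham 1, 2 and 3 but only Ctrl sham 4 among Ctrl libraries. Differences between KO and Ctrl hearts of the same operation are thus partly confounded with these numbers. With the 25 term, Ctrl changes after TAC lean on Ctrl TAC 1 and on how KO TAC 4 differs from KO TAC 1, 2 and 3. With the 33 term, KO changes lean on KO sham 4 and on how Ctrl sham 4 differs from Ctrl sham 1, 2 and 3. Labels name each library as 1 mouse.

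After TAC, transcripts of the network were lower or not called, and in no contrast was a member called higher. In Ctrl hearts 2 of 10 members were called lower (Gabpa and Esrrg), where 20.0% of all genes were called, 10.4% higher and 9.6% lower. In KO hearts 7 of 10 were called lower (Esrra, Gabpa, Perm1, Esrrb, Esrrg, Ppara and Ppargc1a), where 34.3% of all genes were called, 17.8% higher and 16.5% lower. The median log2 fold change of the 10 members was -0.20 in Ctrl and -0.26 in KO hearts, against 0.0043 and -0.0039 over all genes tested. Without the library labelled KO TAC 4, 7 members were again called in KO hearts and 1, Gabpa, in Ctrl hearts. Of the 18494 genes tested in that fit, 5740 were called in KO and 3502 in Ctrl hearts. Calls used an adjusted p under 0.05 in edgeR's quasi-likelihood test, adjusted over all genes tested. Since whole tissue was measured, fewer cardiomyocytes and less RNA per cardiomyocyte cannot be told apart in any of these values.

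**Figure D1:**
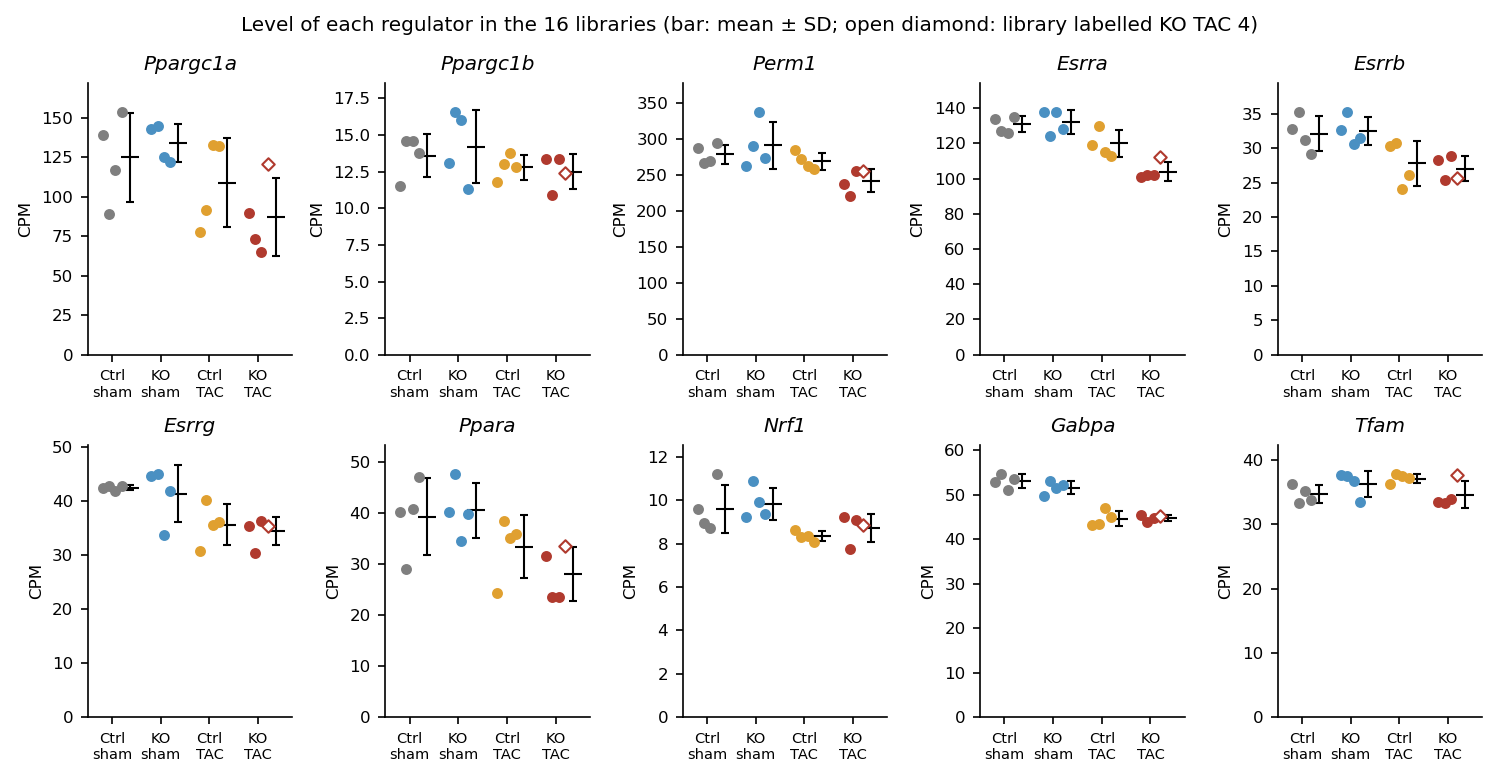
Level of each regulator in CPM on the y axis, in the 4 groups on the x axis, with 1 point per library, the mean ± SD of the 4 libraries of a group as a black bar and the library labelled KO TAC 4 as an open diamond. Gabpa shows the clearest step between sham (49.7 to 54.6 CPM) and TAC (43.2 to 46.9 CPM), while Tfam stays within 33.3 to 37.8 CPM in all 16 libraries.

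Per kilobase of exon the members covered a wide range of levels in Ctrl sham hearts. Perm1, a muscle-specific partner of PGC-1 and the ERRs, was the most abundant at 71.5 ± 3.41 CPM per kilobase (SD, n = 4). Esrra followed at 29.8 ± 1.01 and Ppargc1a at 18.9 ± 4.27 CPM per kilobase. Ppara had 10.3 ± 1.97, Gabpa 9.32 ± 0.269 and Tfam 7.81 ± 0.309 CPM per kilobase. The libraries of Ppara (7.57 to 12.3) overlapped those of both Gabpa and Tfam, so that these 3 cannot be ordered with Ppara among them. Esrrg had 6.83 ± 0.0819, Esrrb 5.30 ± 0.424 and Ppargc1b 3.42 ± 0.367 CPM per kilobase. Nrf1 was the least abundant, at 0.934 ± 0.107 CPM per kilobase. All other neighbours in this order had libraries that did not overlap. In KO TAC hearts the mean of Ppara (7.33 ± 1.39) was under those of Gabpa (7.87 ± 0.127) and Tfam (7.79 ± 0.464), with overlapping libraries, and the rest of the order was as in Ctrl sham hearts. Exon lengths came from all annotated exons merged, and with the longest transcript instead Esrra stood at 52.5 and Nrf1 at 2.38 CPM per kilobase in the same order.

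**Figure D2:**
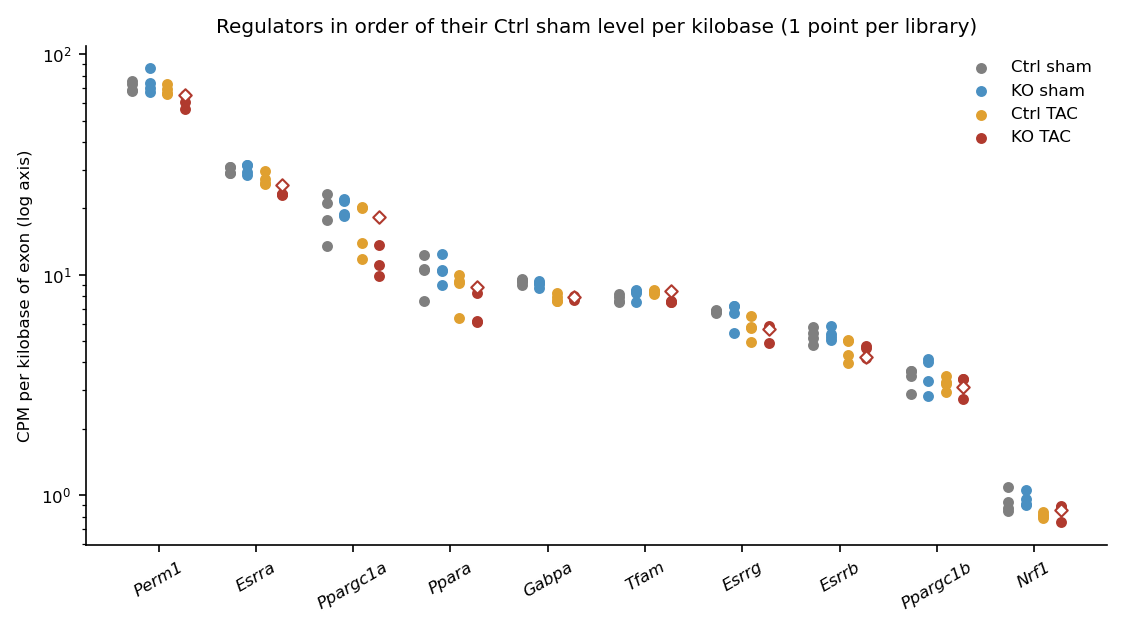
CPM per kilobase of exon (log axis) for the 10 regulators on the x axis, ordered by their Ctrl sham mean, with 1 point per library coloured by group and the library labelled KO TAC 4 as an open diamond. The members span from 0.934 (Nrf1) to 71.5 (Perm1) CPM per kilobase in Ctrl sham hearts, and the spread over groups is small beside that range.

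Promoter sequences of the members were examined for short sites of the network's own factors. RefSeq (GRCm38.p6) gave 14 promoter entries for 9 of the 10 members, each from 250 bases before to 50 bases after a transcription start. The sites searched on both strands were the ERR response element TNAAGGTCA, the NRF1 site GCGCATGCG, the GABPA-type ETS site CCGGAAGT and the cAMP response element TGACGTCA, through which CREB acts on Ppargc1a in other tissues. Of 32851 mouse promoters of this length, 1.28%, 1.75%, 3.89% and 1.79% held them. Among the members, the ETS site was found in the Tfam promoter at positions -47 to -40 from the start, and the NRF1 site in the Ppara promoter from position -31. The latter match is read on both strands, which overlap in a palindrome. No entry held the ERR or the cAMP element, which says only that these letters are absent from these windows. The sequences below are written 5′ to 3′ on the strand of the gene, with the matches in capitals. Tfam (chr10:71237995-71238294, minus strand) and Ppara (chr15:85735526-85735825, plus strand) are shown for their matches, and Esrra (chr19:6921759-6922058, minus strand) as the receptor with the smallest p after TAC in KO hearts.
Tfam: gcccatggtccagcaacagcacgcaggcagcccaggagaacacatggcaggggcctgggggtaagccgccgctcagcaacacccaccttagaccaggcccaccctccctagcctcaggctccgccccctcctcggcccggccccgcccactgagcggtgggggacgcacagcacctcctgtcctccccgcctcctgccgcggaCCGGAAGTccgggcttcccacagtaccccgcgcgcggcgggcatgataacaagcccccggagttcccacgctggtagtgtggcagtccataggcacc
Ppara: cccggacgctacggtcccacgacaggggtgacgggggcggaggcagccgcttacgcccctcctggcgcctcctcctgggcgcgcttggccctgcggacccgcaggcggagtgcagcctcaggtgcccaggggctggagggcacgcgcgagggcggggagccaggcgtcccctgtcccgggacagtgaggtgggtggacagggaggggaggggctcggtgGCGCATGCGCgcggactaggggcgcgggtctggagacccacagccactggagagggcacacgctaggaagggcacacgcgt
Esrra: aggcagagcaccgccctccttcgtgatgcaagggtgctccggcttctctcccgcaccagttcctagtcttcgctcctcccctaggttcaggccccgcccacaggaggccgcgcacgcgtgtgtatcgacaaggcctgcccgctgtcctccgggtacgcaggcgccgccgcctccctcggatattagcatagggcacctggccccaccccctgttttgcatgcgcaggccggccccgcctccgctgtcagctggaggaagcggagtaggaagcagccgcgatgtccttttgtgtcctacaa

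Ppargc1a (ENSMUSG00000029167, chromosome 5, 51454250 to 51567726, minus strand, GRCm38) encodes PGC-1 alpha, the inducible coactivator of the family. Its levels in Ctrl sham 1 to 4 were 139, 89.0, 117 and 154 CPM, and in KO sham 1 to 4 they were 143, 145, 125 and 122 CPM. Ctrl TAC 1 to 4 had 78.0, 91.6, 133 and 132 CPM, and KO TAC 1 to 4 had 89.7, 73.1, 65.3 and 121 CPM. Its coefficient of variation was the highest of the members in Ctrl sham (22.6%), Ctrl TAC (26.0%) and KO TAC hearts (28.1%). In KO sham hearts it was 9.06%, below those of Ppargc1b (17.5%), Ppara (13.3%), Esrrg (12.6%) and Perm1 (11.4%). Ctrl TAC libraries overlapped those of Ctrl sham, and all KO TAC libraries lay below all KO sham libraries, though by little for KO TAC 4. In KO hearts Ppargc1a fell by 34.9% (log2 fold change -0.62 ± 0.22 SE, adjusted p = 0.0464). Without the library labelled KO TAC 4 it fell by 43.2% (-0.82 ± 0.21 SE, adjusted p = 0.0102). This call held in 6 of 16 fits with 1 library left out, with adjusted p from 0.0102 to 0.127, and was lost when a term for animal numbers in the 33 range was added (-0.39, adjusted p = 0.347). In Ctrl hearts the log2 fold change was -0.20 with a 95% interval from -0.68 to 0.28 (adjusted p = 0.595), and -0.70 with a term for the 25 series (adjusted p = 0.0513). The latter fit leans on Ctrl TAC 1, at 78.0 CPM, as no sham library is in that series.

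Ppargc1b, the constitutive relative on chromosome 18, was far lower, with 10.9 to 16.6 CPM over the 16 libraries. Sham and TAC libraries overlapped in both genotypes, at 13.6 ± 1.46 CPM in Ctrl sham against 12.8 ± 0.855 in Ctrl TAC hearts and 14.2 ± 2.49 in KO sham against 12.5 ± 1.18 in KO TAC hearts (SD, n = 4 each). It was called in no contrast, and its log2 fold change after TAC was -0.086 (95% interval -0.32 to 0.15) in Ctrl and -0.19 (-0.42 to 0.046) in KO hearts. Without KO TAC 4 the change in KO hearts was -0.18 (adjusted p = 0.296). Per kilobase Ppargc1a made up 84.1 ± 4.28% of the sum of both PGC-1 transcripts in Ctrl sham, 83.2 ± 3.08% in Ctrl TAC, 85.1 ± 2.1% in KO sham and 80.2 ± 4.38% in KO TAC hearts (SD, n = 4 each), with overlapping libraries in the 4 groups.

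Perm1 (ENSMUSG00000078486, chromosome 4, 156215868 to 156221307, plus strand), the striated-muscle coactivator, had 287, 267, 269 and 294 CPM in Ctrl sham 1 to 4 and 262, 290, 338 and 274 CPM in KO sham 1 to 4. After TAC it had 285, 272, 262 and 258 CPM in Ctrl 1 to 4 and 238, 221, 255 and 255 CPM in KO 1 to 4. All KO TAC libraries were thus below every other library, while Ctrl TAC and Ctrl sham overlapped. The fall after TAC in KO hearts was 16.7% of the sham mean (log2 fold change -0.26 ± 0.07 SE, adjusted p = 0.00656), and it was called in all 16 fits with 1 library left out. KO sham animals 1, 2 and 3 have animal numbers in the 33 range, and with a term for these numbers the change was -0.18 (adjusted p = 0.152). Leaving out KO TAC 4 gave -0.29 (adjusted p = 0.00818). In Ctrl hearts the change was -0.053 (95% interval -0.20 to 0.094, adjusted p = 0.661).

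Esrra, which encodes ERR alpha, was the most abundant receptor (ENSMUSG00000024955, chromosome 19, 6910977 to 6921813, minus strand). Ctrl sham 1 to 4 had 134, 127, 126 and 135 CPM and KO sham 1 to 4 had 138, 124, 138 and 128 CPM. Ctrl TAC 1 to 4 had 119, 130, 115 and 113 CPM and KO TAC 1 to 4 had 101, 102, 102 and 112 CPM. The KO TAC libraries were lower than all 12 others, with the library labelled KO TAC 4 nearest to the Ctrl TAC range. In KO hearts Esrra fell by 21.2% after TAC (log2 fold change -0.34 ± 0.055 SE, adjusted p = 9.12e-05), and without KO TAC 4 by 23.2% (adjusted p = 8.17e-05). In Ctrl hearts the change was -0.13 (95% interval -0.24 to -0.015) with an adjusted p of 0.108, and Ctrl TAC 2, at 130 CPM, was the library that overlapped the sham range. Without Ctrl TAC 2 the change was -0.17 and was called (adjusted p = 0.0295). Esrra shares 73 exon bases with Trmt112 on the opposite strand, 1.66% of its exon length, and whether the counting used the strand is not given.

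Esrrb and Esrrg, the genes of ERR beta and ERR gamma, were each lower than Esrra. Esrrg (ENSMUSG00000026610, chromosome 1, 187608791 to 188214885, plus strand) had 42.3, 42.8, 41.7 and 42.7 CPM in Ctrl sham 1 to 4 and 30.7, 40.1, 35.5 and 36.1 CPM in Ctrl TAC 1 to 4, without overlap. Its fall of 16% in Ctrl hearts was near the threshold (log2 fold change -0.25 ± 0.086 SE, adjusted p = 0.0478). That call held in 4 of 16 fits with 1 library left out, and with Ctrl TAC 1 left out the change was -0.19 (adjusted p = 0.148). In KO hearts Esrrg had 44.6, 44.9, 33.7 and 41.8 CPM in sham 1 to 4 and 35.4, 30.4, 36.2 and 35.3 CPM in TAC 1 to 4, so that KO sham 3 lay among the TAC libraries. It fell by 16.7% there (-0.26 ± 0.086 SE, adjusted p = 0.0242), called in 12 of 16 fits with 1 library left out. With a term for the 33 range the Esrrg call was lost in both Ctrl (-0.25, adjusted p = 0.0622) and KO hearts (-0.27, adjusted p = 0.104). Esrrb ranged from 29.1 to 35.3 CPM in sham and from 24 to 30.7 CPM in TAC libraries of both genotypes. In KO hearts it fell by 16.9% (-0.27 ± 0.08 SE, adjusted p = 0.0144), and in Ctrl hearts its change was -0.21 (95% interval -0.38 to -0.043, adjusted p = 0.0729). The latter was called without Ctrl sham 4, Ctrl TAC 1 or Ctrl TAC 2 (-0.25 to -0.26, adjusted p = 0.0324 to 0.0449). Without the library labelled KO TAC 4 the changes in KO hearts were -0.24 for Esrrb and -0.28 for Esrrg (adjusted p = 0.0445 and 0.0376). The proportions among the 3 receptors stayed close over the groups. Esrra made up 71.1 ± 1.2% of ERR transcripts per kilobase in Ctrl sham, 72.5 ± 0.677% in Ctrl TAC, 71.5 ± 2.71% in KO sham and 70.3 ± 1.87% in KO TAC hearts (SD, n = 4 each), with Esrrg at 15.3 to 16.4% and Esrrb at 12.2 to 13.3% on average.

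Ppara (ENSMUSG00000022383, chromosome 15, 85734983 to 85802819, plus strand) encodes the receptor for fatty acids whose promoter is printed above. Its levels were 40.3, 29.0, 40.8 and 47.2 CPM in Ctrl sham 1 to 4 and 40.2, 47.7, 34.6 and 39.8 CPM in KO sham 1 to 4. TAC libraries had 24.4, 38.5, 35.1 and 36.0 CPM in Ctrl 1 to 4 and 31.7, 23.5, 23.6 and 33.7 CPM in KO 1 to 4. Groups overlapped in Ctrl hearts but not in KO hearts, where the highest TAC library (33.7 CPM, KO TAC 4) was just under the lowest sham library (34.6 CPM). Ppara fell by 30.7% in KO hearts (log2 fold change -0.53 ± 0.17 SE, adjusted p = 0.0292), and by 35.3% without KO TAC 4 (-0.63, adjusted p = 0.0186). The call held in 11 of 16 fits with 1 library left out, with adjusted p from 0.0143 to 0.0875, and not when the term for the 33 range was added (-0.38, adjusted p = 0.243). In Ctrl hearts the change was -0.23 (95% interval -0.60 to 0.14, adjusted p = 0.403), and it was -0.60 and called (adjusted p = 0.0485) with a term for the 25 series. The latter fit leans on Ctrl TAC 1, at 24.4 CPM, as no sham library is in that series.

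Gabpa, the DNA-binding subunit of NRF2, gave the most even result (ENSMUSG00000008976, chromosome 16, 84834925 to 84863779, plus strand). Ctrl sham 1 to 4 had 52.9, 54.6, 51.0 and 53.6 CPM and Ctrl TAC 1 to 4 had 43.2, 43.3, 46.9 and 45.0 CPM. KO sham 1 to 4 had 49.7, 53, 51.5 and 52.2 CPM and KO TAC 1 to 4 had 45.4, 43.8, 44.7 and 45.1 CPM. Every TAC library was below every sham library, and the library labelled KO TAC 4 did not stand apart. Gabpa fell by 15.9% in Ctrl hearts (log2 fold change -0.25 ± 0.042 SE, adjusted p = 0.000358) and by 13.3% in KO hearts (-0.21 ± 0.042 SE, adjusted p = 0.000925). Without KO TAC 4 the latter was -0.21 (adjusted p = 0.00293). It was called in both genotypes in all 16 fits with 1 library left out. Exons of Gabpa overlap Atp5j, a subunit gene of ATP synthase on the opposite strand, over 397 bases or 6.98% of its exon length. Atp5j had a mean of 29000 counts per library against 3080 for Gabpa, and since the strand setting of the counting is not given, how far its reads entered the Gabpa count was not tested.

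Nrf1, the other nuclear respiratory factor, was low throughout at 7.75 to 11.2 CPM and was called in no contrast. Its libraries did not overlap between sham and TAC in either genotype, but they nearly touched. Ctrl TAC 1 had 8.64 CPM against 8.72 in Ctrl sham 3, and KO TAC 1 had 9.22 CPM against 9.23 in KO sham 1. The log2 fold change was -0.20 (95% interval -0.38 to -0.024, adjusted p = 0.104) in Ctrl and -0.17 (-0.35 to 0.0038, adjusted p = 0.124) in KO hearts. Tfam had 36.3, 33.3, 35.2 and 33.8 CPM in Ctrl sham 1 to 4 and 37.7, 37.5, 36.7 and 33.4 CPM in KO sham 1 to 4. After TAC it had 36.2, 37.8, 37.5 and 37.2 CPM in Ctrl 1 to 4 and 33.5, 33.3, 33.9 and 37.6 CPM in KO 1 to 4. Ctrl TAC hearts and the library labelled KO TAC 4 were thus at the upper end of its range, and KO TAC 1, 2 and 3 at the lower end. Tfam was the only member whose log2 fold change after TAC was above 0 in Ctrl hearts (0.10, 95% interval -0.0094 to 0.21, adjusted p = 0.199), and in KO hearts it was -0.071 (-0.18 to 0.038, adjusted p = 0.319). Without KO TAC 4 the changes in KO hearts were -0.11 for Tfam and -0.18 for Nrf1 (adjusted p = 0.104 and 0.168).

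**Figure D3:**
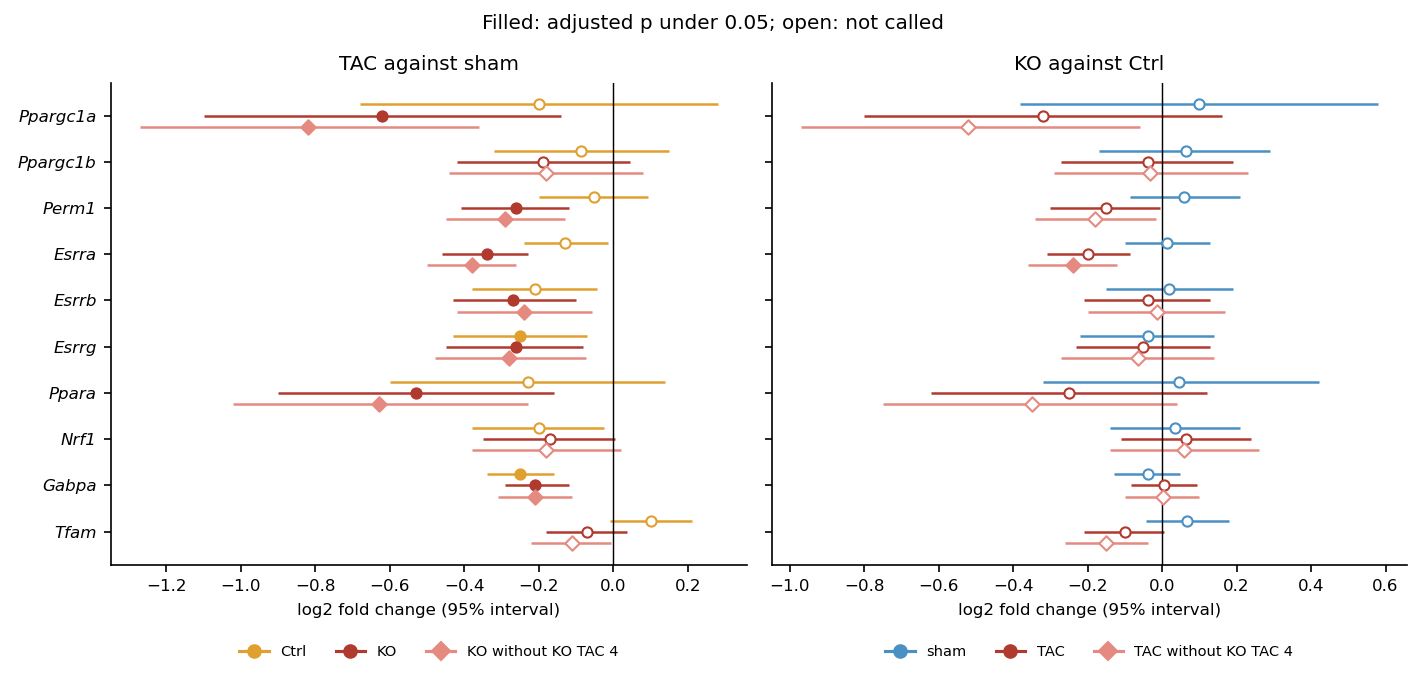
Log2 fold changes of the 10 regulators with 95% intervals, for TAC against sham (left) and KO against Ctrl (right), with called values filled, values that were not called open, and the fits without the library labelled KO TAC 4 as diamonds. In KO hearts 7 members are filled on the left, from -0.21 (Gabpa) to -0.62 (Ppargc1a), and on the right only Esrra without KO TAC 4 is filled (-0.24).

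KO and Ctrl hearts were compared within each operation to ask whether the loss of Cardinal itself shifts these genes. In sham hearts neither edgeR nor DESeq2 called a member, and 0 of 10 had an unadjusted p under 0.05 in edgeR. Over all genes 0.0% were called in this contrast, and 2.62% had an unadjusted p under 0.05. The intervals of the sham comparison bound the size that could have been missed. They ran from -0.10 to 0.13 log2 for Esrra, from -0.13 to 0.049 for Gabpa and from -0.042 to 0.18 for Tfam, but from -0.38 to 0.58 for Ppargc1a and from -0.32 to 0.42 for Ppara.

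In TAC hearts edgeR called no member, where 2.68% of all genes were called, 1.36% higher in KO and 1.32% lower. Cardinal was again not called in the main fit (-1.57, adjusted p = 0.263), but was called once KO TAC 4 was dropped (-3.64, adjusted p = 0.000944). An unadjusted p under 0.05 was reached by 2 members, Esrra and Perm1, and by 18.5% of all genes. Without the library labelled KO TAC 4, Ppargc1a and Tfam reached it as well. Esrra was 120 ± 7.71 CPM in Ctrl TAC and 104 ± 5.33 CPM in KO TAC hearts (SD, n = 4 each). That is a log2 difference of -0.20 (95% interval -0.31 to -0.085, adjusted p = 0.0563), with no overlap between the groups. DESeq2 called it (adjusted p = 0.0160), as did edgeR without the library labelled KO TAC 4 (-0.24, adjusted p = 0.0385) and without Ctrl TAC 4 (-0.22, adjusted p = 0.0421). Over the 16 fits with 1 library left out its adjusted p ran from 0.0385 to 0.197, and with a term for the 25 series the difference was -0.16 (adjusted p = 0.259). Perm1 was 269 ± 12.1 CPM in Ctrl TAC and 242 ± 16.3 CPM in KO TAC hearts (-0.15, 95% interval -0.30 to -0.0042, adjusted p = 0.254). Without KO TAC 4 its difference was -0.18 (adjusted p = 0.231). For Tfam the difference was -0.10 (adjusted p = 0.297), and -0.15 (adjusted p = 0.139) without KO TAC 4, where its KO TAC libraries no longer overlapped those of Ctrl TAC. Ppargc1a differed by -0.32 (adjusted p = 0.484), by -0.52 without KO TAC 4 (adjusted p = 0.217) and by -0.0084 with a term for the 25 series (adjusted p = 0.992). Gabpa had nearly equal means, 44.6 ± 1.75 and 44.7 ± 0.722 CPM, with a difference of 0.0049 log2 (95% interval -0.084 to 0.093).

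The genotype by surgery interaction asks directly whether TAC acted differently in KO hearts, and it called none of the 10 members. Of all genes 0.0109% were called. The calls of Perm1, Esrra, Esrrb, Ppara and Ppargc1a in KO but not in Ctrl hearts are therefore not shown to differ between the genotypes. An unadjusted p under 0.05 was reached by Esrra (-0.21, 95% interval -0.38 to -0.051, adjusted p = 0.323), Perm1 (-0.21, -0.42 to -0.0038, adjusted p = 0.443) and Tfam (-0.17, -0.33 to -0.016, adjusted p = 0.396). That is 3 of 10 members, against 11.1% of all genes. DESeq2 called none of the members either. Without the library labelled KO TAC 4 the values were -0.25 for Esrra, -0.24 for Perm1 and -0.21 for Tfam (adjusted p = 0.245, 0.405 and 0.263). Ppargc1a then also reached an unadjusted p under 0.05 (-0.62, 95% interval -1.23 to -0.0015, adjusted p = 0.435). With all 16 libraries the interval of the interaction was widest for Ppargc1a, from -1.10 to 0.26.

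Summed RNA of the markers of some cell types also differed between sham and TAC libraries. Ventricular cardiomyocyte markers (8 genes, among them the genes of the sarcomere) summed to 47000 to 53900 CPM in Ctrl sham, 47600 to 53400 in KO sham, 41700 to 46400 in Ctrl TAC and 36400 to 37700 CPM in KO TAC libraries. In KO hearts 6 of the 8 were called lower and 1 higher after TAC, and in Ctrl hearts 4 lower and 2 higher. Calls of markers used all 16 libraries and were not repeated without KO TAC 4. Fibroblast markers (7 genes) summed to 537 to 604, 548 to 581, 735 to 1040 and 1040 to 1230 CPM in the same order of groups, and macrophage markers (5 genes) to 86.9 to 116, 81.9 to 101, 124 to 138 and 126 to 164 CPM. Endothelial markers (5 genes) summed to 525 to 690 CPM in all groups, and smooth muscle and pericyte markers (5 genes) to 563 to 682 CPM. Markers of red blood cells summed to 530 to 1380 CPM, and none of the 5 genes was called. The list written for atrial cardiomyocytes summed to 17.5 to 29.9 CPM in sham and 34.3 to 64.4 CPM in TAC libraries, but nearly all of it was Myl1, at 1025 to 4738 counts. Myl7 and Sln of the same list had at most 9 and 4 counts outside Ctrl TAC 2. The sum is therefore not read as an amount of atrial tissue. Myl4 had 60 to 97 counts in sham and 102 to 159 in TAC libraries. White fat markers summed to at most 1.67 CPM and skeletal muscle markers to at most 4.44 CPM, both in Ctrl TAC 2. Of the brown fat list, 15.5 to 25.2 CPM in sum, Cidea held nearly all, and Ucp1 had 98 counts in Ctrl TAC 2 and 0 to 10 in the other libraries. The part that these shifts have in the lower regulator levels after TAC was not tested.

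Within groups, the deviations of each library from its group mean were set side by side for all pairs of members. The closest pair was Ppargc1a and Ppara, with Pearson's r of 0.81 and Spearman's rho of 0.80 over 16 libraries, and r of 0.73 without Ctrl sham 2 and KO TAC 4, the libraries farthest from the median for Ppargc1a. Ctrl sham 2 and Ctrl TAC 1 were low for both genes, with deviations of -0.46 and -0.44 log2 for Ppargc1a. Esrrg and Ppara had r of 0.60, or 0.39 without Ctrl TAC 1 and KO sham 3. Perm1 and Nrf1 had r of 0.59, and Ppargc1a and Tfam r of 0.57, the latter at 0.35 without Ctrl sham 2 and KO TAC 4. Ppargc1a and Esrrb ran against each other (r = -0.62). These are 5 of 45 pairs over the same libraries, which share their scaling and cell makeup, and are given as a description.

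**Figure D4:**
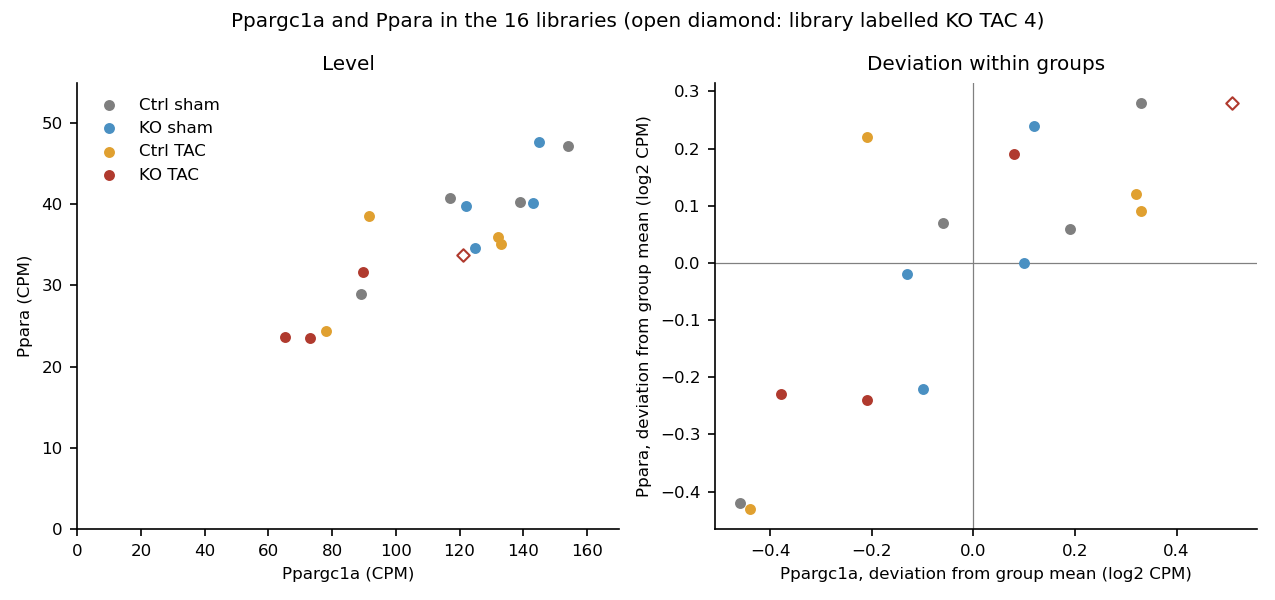
Ppara against Ppargc1a in the 16 libraries, as levels in CPM (left) and as deviations from the group mean in log2 CPM (right), with points coloured by group and the library labelled KO TAC 4 as an open diamond. Libraries with less Ppargc1a also had less Ppara inside the groups (r = 0.81), with Ctrl sham 2 and Ctrl TAC 1 lowest on the right.

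Genes whose profile over the 16 libraries lay nearest to a member were found by the root mean square distance of centred log2 CPM among 10254 protein-coding genes. For Ppargc1a the nearest was Ppara (distance 0.174, r = 0.89), followed by Pde7a and Fas. For Ppara they were Anks1 (0.136), Osbpl6 and Fas. Esrra lay closest to Polg, the catalytic subunit of the mitochondrial DNA polymerase, at a distance of 0.041 (r = 0.98), then to Ccdc85c and Fastk. Polg had 60.3 ± 1.47 CPM in Ctrl sham, 56.2 ± 3.50 in Ctrl TAC, 61.0 ± 1.36 in KO sham and 50.1 ± 1.28 CPM in KO TAC hearts (SD, n = 4 each). Perm1 lay closest to Pptc7 (0.0552), a mitochondrial phosphatase, then to Ice1 and Hdhd2. Distances are smaller for members that vary less, such as Esrra and Perm1.

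Partners and upstream regulators of the network formed a list of 34 genes, of which 2 were called higher and 6 lower after TAC in Ctrl hearts and 3 higher and 9 lower in KO hearts (3 and 9 without KO TAC 4). Summed over both directions these shares are near those over all genes, 20.0% in Ctrl and 34.3% in KO hearts, so the partners named here are described one by one and not as a group. The 2 called higher in Ctrl hearts became 1 without Ctrl sham 1, Ctrl sham 2 or any of Ctrl TAC 2, 3 and 4, and 0 with a term for the 25 series. The retinoid X receptors, which pair with PPAR alpha on DNA, were among those called lower. Rxra went from 63.5 ± 3.88 to 50.7 ± 5.45 CPM in Ctrl hearts and from 62.6 ± 3.72 to 44.6 ± 2.77 CPM in KO hearts (log2 fold change -0.32 and -0.49, adjusted p = 0.00315 and 3.46e-05). Rxrg changed by -0.22 and -0.57 (adjusted p = 0.0264 and 3.01e-06). Klf15, a factor that promotes cardiac lipid use, went from a mean of 60.2 to 41.0 CPM in Ctrl and from 58.9 to 27.5 CPM in KO hearts (-0.55 and -1.10, adjusted p = 0.0174 and 5.57e-05). Thrb, a thyroid hormone receptor, changed by -0.47 and -0.48 (adjusted p = 0.00302 and 0.00127). Called higher were Prkag2, a regulatory subunit of AMP-activated kinase (0.29 and 0.43, adjusted p = 0.0229 and 0.000759, the former called in 18 of 25 alternatives with adjusted p up to 0.359), and Smyd1, a muscle histone methyltransferase, in Ctrl hearts (0.24, adjusted p = 0.00783). The third PGC-1 relative, Pprc1, rose in KO hearts (0.25, adjusted p = 0.0276) and had a change of 0.042 in Ctrl hearts (adjusted p = 0.792). Pparg fell in KO hearts (-0.34, adjusted p = 0.0250), from 10.5 ± 1.62 to 8.28 ± 0.941 CPM. Ppard, Nrip1 and Prkaa2 were called in no contrast. Some of these calls rested on single libraries. That of Klf15 in Ctrl hearts was lost without Ctrl sham 1, Ctrl TAC 1 or Ctrl TAC 4, and that of Rxrg in Ctrl hearts without Ctrl sham 1, Ctrl sham 2, Ctrl TAC 1 or Ctrl TAC 4. Pprc1 and Pparg in KO hearts lost theirs without KO sham 4, KO TAC 2 or KO TAC 3, and Pprc1 also without KO sham 3. Leaving out KO TAC 4 gave changes in KO hearts of -0.46 for Rxra, -1.13 for Klf15, -0.36 for Pparg and 0.30 for Pprc1, all called. In KO TAC against Ctrl TAC hearts 1 partner was called lower, Rxrg (-0.28, adjusted p = 0.0335, and 0.0491 without KO TAC 4). That call held in 17 of 25 alternatives and was lost without Ctrl TAC 2, Ctrl TAC 3, KO TAC 2 or KO TAC 3.

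PPAR alpha targets were the list with the largest median change. Of its 28 genes 18 were called lower and 0 higher in Ctrl hearts (median log2 fold change -0.37), and 24 lower and 0 higher in KO hearts (-0.63), or 21 lower without KO TAC 4. Of all genes 9.6% were called lower in Ctrl and 16.5% in KO hearts. Acot1, an acyl-CoA thioesterase, went from 13.0 ± 1.96 to 5.29 ± 1.52 CPM in Ctrl and from 10.6 ± 5.14 to 2.77 ± 0.439 CPM in KO hearts (log2 fold change -1.30 and -1.93, adjusted p = 0.00368 and 0.000112). Its near-identical relatives in the Acot cluster can share reads, so its count is uncertain. Slc27a1, a fatty acid transporter, changed by -0.84 and -1.04 (adjusted p = 0.00534 and 0.000614). The fatty acid uptake gene Cd36 changed by -0.34 and -0.53 (adjusted p = 0.00250 and 1.97e-05). Cpt1b, which loads fatty acids for entry to mitochondria, fell in KO hearts (-0.37, adjusted p = 0.000287) and changed by -0.16 in Ctrl hearts (adjusted p = 0.107). Pdk4, a kinase that holds back glucose oxidation, varied from mouse to mouse and was not called (-0.36 and -0.99, adjusted p = 0.583 and 0.0746). Without KO TAC 4 the changes in KO hearts were -2.03 for Acot1, -1.06 for Slc27a1, -0.54 for Cd36 and -0.39 for Cpt1b, all called.

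ERR targets, 24 genes of the tricarboxylic acid cycle and respiratory chain, had 18 called lower and 0 higher in Ctrl hearts (median -0.21) and 24 lower in KO hearts (-0.35), also 24 without KO TAC 4. The shares of all genes called lower were 9.6% in Ctrl and 16.5% in KO hearts. Ndufs1, a subunit of complex I, went from 720 ± 69.2 to 557 ± 22.1 CPM in Ctrl and from 700 ± 30.2 to 485 ± 9.77 CPM in KO hearts (-0.37 and -0.53, adjusted p = 0.000200 and 1.74e-06). Atp5a1, a subunit of ATP synthase, changed by -0.34 and -0.47 (adjusted p = 9.27e-05 and 8.61e-07). With a term for the 25 series the count in Ctrl hearts was 10.

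Targets of the nuclear respiratory factors moved both ways in Ctrl hearts, with 4 of 16 called higher and 5 lower. In KO hearts 2 were higher and 10 lower, and without KO TAC 4 these were 0 and 8. Over all genes 10.4% were called higher and 9.6% lower in Ctrl hearts, and 17.8% and 16.5% in KO hearts. Alas1, the first enzyme of heme synthesis, rose from 124 ± 15.7 to 188 ± 13.2 CPM in Ctrl hearts (0.60, adjusted p = 0.00248) and had a change of 0.26 in KO hearts (adjusted p = 0.115). Tomm22, of the import pore, rose by 0.18 and 0.15 (adjusted p = 0.0205 and 0.0332, the latter 0.0817 without KO TAC 4). The respiratory chain genes Cox6c (-0.25 and -0.37, adjusted p = 0.0259 and 0.000913) and Uqcrb (-0.20 and -0.31, adjusted p = 0.0431 and 0.00131) fell. The Ctrl calls of Cox6c and Uqcrb held in 17 and 11 of 25 alternatives, and those of Tomm22 in 19 in Ctrl and 17 in KO hearts. The Ctrl counts rested on few libraries. No gene was called lower without Ctrl sham 1, Ctrl sham 4 or Ctrl TAC 4, 1 without Ctrl TAC 2, 3 without Ctrl TAC 1 and 8 without Ctrl TAC 3, and the 4 higher ones became 2 without Ctrl sham 2 or Ctrl TAC 4. The 2 higher ones in KO hearts also became 1 without KO sham 2, KO sham 4 or KO TAC 2.

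The machinery that works with Tfam on mitochondrial DNA, 18 genes, had 6 called lower in Ctrl hearts (3 without Ctrl sham 1) and 11 lower in KO hearts (10 without KO TAC 4), with 0 higher in either. All genes tested had 9.6% called lower in Ctrl and 16.5% in KO hearts. Twnk, the mitochondrial helicase, changed by -0.25 and -0.51 (adjusted p = 0.0163 and 2.48e-05), the former lost without Ctrl sham 1 or Ctrl TAC 4 and the latter -0.56 without KO TAC 4. Mgme1, a mitochondrial exonuclease, changed by -0.43 and -0.68 (adjusted p = 0.000992 and 3.97e-06), and Top1mt, the mitochondrial topoisomerase, by -0.51 and -0.75 (adjusted p = 0.00121 and 1.21e-05). Polrmt, the mitochondrial RNA polymerase, fell in KO hearts (-0.17, adjusted p = 0.0198, lost without KO sham 1 or KO TAC 2) and had 0.0028 in Ctrl hearts (adjusted p = 0.979). Tfb2m, its initiation factor, fell in KO hearts (-0.14, adjusted p = 0.0360), a call that held in 15 of 25 alternatives and was lost without KO TAC 4 (adjusted p = 0.0707). Of the 13 proteins encoded in mitochondrial DNA, 5 were called lower in Ctrl hearts (median -0.29) and 10 in KO hearts (-0.34), also 10 without KO TAC 4. The Ctrl count was 3 without Ctrl sham 1, Ctrl TAC 2 or Ctrl TAC 4 and 12 without Ctrl TAC 3. The genes mt-Nd5 (-0.32 and -0.44, adjusted p = 0.00702 and 0.000322) and mt-Nd6 (-0.39 and -0.46, adjusted p = 0.00964 and 0.00158) fell in both genotypes. Tfam itself was called in neither.

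**Figure D5:**
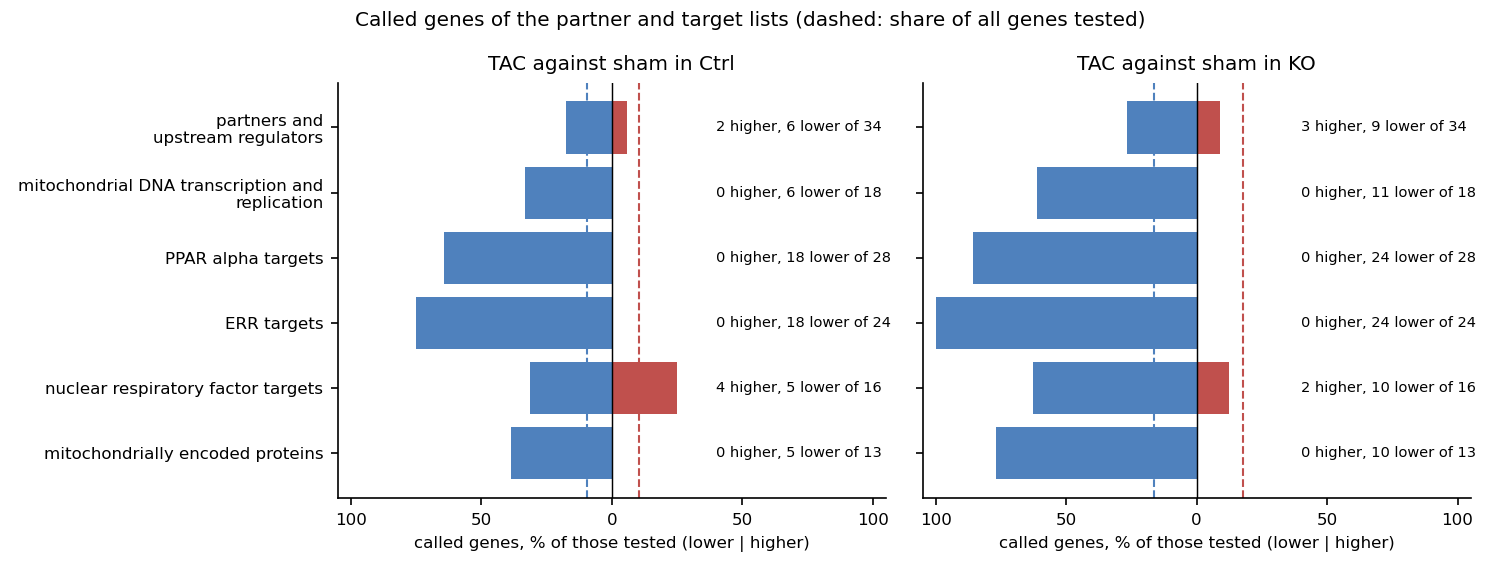
Share of the genes of each list called higher (right of 0) or lower (left of 0) after TAC, in percent of those tested, in Ctrl hearts (left panel) and KO hearts (right panel), with dashed lines at the share of all genes tested in each direction. PPAR alpha and ERR targets reach 18 of 28 and 18 of 24 lower in Ctrl hearts and 24 of 28 and 24 of 24 in KO hearts, and only partners and nuclear respiratory factor targets have genes called higher.

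Between KO TAC and Ctrl TAC hearts, 6 PPAR alpha targets and 5 ERR targets were called lower and none higher, with medians of -0.30 and -0.14. Over all genes 1.32% were called lower and 1.36% higher, with a median of -0.0017. With every library in the fit, all 28 PPAR alpha targets and all 24 ERR targets had negative values. These counts were unstable. For PPAR alpha targets they were 0 without Ctrl TAC 2 or KO TAC 3, 1 without Ctrl TAC 3 or KO TAC 2, 2 without KO sham 2, and 3 without KO TAC 1 or the library labelled KO TAC 4. For ERR targets they were 1 without Ctrl TAC 2, Ctrl TAC 3, KO TAC 1, KO TAC 3 or KO TAC 4, 2 without KO sham 2, 3 without KO sham 1 or KO TAC 2, and 8 without Ctrl sham 1. Both were 0 with a term for the 25 series, and 12 and 11 in DESeq2. The other lists had 0 called in this contrast except Rxrg, no list had a gene called between KO and Ctrl sham hearts, and edgeR called none in the interaction.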

How the data were processed

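Raw counts, not normalized, were deposited by the authors for 55487 Ensembl genes in 1 table, with 1 column for each of 16 mice, from poly(A)-selected, paired-end heart apex RNA. The submitters' processing notes list cutadapt 2.3, FastQC, HISAT2 2.1.0, edgeR 3.26.1 and GRCm38. The counting program, its annotation and its strand setting are not given in the sources used here. Names and positions came from GENCODE M21, which held 99.5% of the identifiers (the others carried 0.00355% of counts). Columns were matched by the animal number in the titles. Replicate numbers follow sample order and pair nothing.

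Genes were filtered with filterByExpr and scaled by TMM in edgeR 4.0.16 (R 4.3.3). A quasi-likelihood model (glmQLFit, robust) with 1 mean per group was fitted to all 16 libraries and 5 contrasts were tested with glmQLFTest, with Benjamini-Hochberg adjustment over 18275 genes. CPM uses TMM-scaled totals. SE is the absolute log2 fold change over the square root of F. The script was tested on simulated data. Alternatives were RLE scaling, DESeq2 1.42.0, other filters, an adjusted p under 0.01, 2 animal-number terms, 2-group fits, omission of mitochondrially encoded genes and of each library. Omission of Ctrl TAC 2 with KO TAC 4, and the alternatives for lists and partner or target genes, were added after seeing the data. Precision is limited by 4 mice per group.

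The members, the 6 partner and target lists (133 entries, all matched, written from general knowledge, with Cycs, Tfb1m, Tfb2m and Polrmt each on 2), the 10 marker lists and the rule for named genes were chosen with earlier results of these data known. Beside the members, the rule named 14 preset genes and, per list, the 2 called genes with the largest change in each direction after TAC in Ctrl hearts. For 4 members it also named the 3 nearest profiles among protein-coding genes of average log2 CPM of at least 2. The marker genes named singly were added after their values were seen.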

Additional observations from a re-analysis of the deposited data

Results flagged for a closer look

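Among the 40 combinations of a member and a group, 3 had a library far from the other 3 of its group by Dixon's criterion, which chance meets in about 1 in 20 groups. Esrra was at 112 CPM in the library labelled KO TAC 4, against 101 to 102 CPM in KO TAC 1, 2 and 3. Tfam was at 37.6 CPM in the same library, against 33.3 to 33.9 CPM in the others, a level inside the Ctrl TAC range of 36.2 to 37.8 CPM. Esrrg was at 30.4 CPM in KO TAC 2, against 35.3 to 36.2 CPM in KO TAC 1, 3 and 4. The library labelled KO TAC 4 is also the one whose Cardinal level goes against its label, and whether this bears on its Esrra and Tfam levels was not tested.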

How the results depend on the processing

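No paired analysis was possible because the replicate numbers follow sample order and the labels give each mouse its own number, so that no number is shared between groups. Calls in TAC against sham in Ctrl hearts went from 2 to 1 at an adjusted p under 0.01, without a filter and with animal numbers starting with 33 as a term, and to 4 without Ctrl TAC 2 and KO TAC 4 (1 to 4 with single libraries left out, 4 without Ctrl TAC 2). In KO hearts they went from 7 to 3 at 0.01 and with the term for numbers starting with 33 (3 to 7 with single libraries left out: 3 without KO sham 2, 4 without KO sham 1 or KO TAC 2). In KO TAC against Ctrl TAC they went from 0 to 1 in DESeq2 (0 to 1 with single libraries left out). Over all genes, the 3652 calls in Ctrl hearts became 2966 without a filter and 3862 with the term for numbers starting with 33. They became 3425 without Ctrl TAC 2 and KO TAC 4. In KO hearts the 6271 calls over all genes became 4831 with the term for numbers starting with 33. With the longest transcript, CPM per kilobase in Ctrl sham became 52.5 (Esrra), 7.46 (Esrrb), 7.89 (Esrrg), 2.38 (Nrf1), 10.6 (Gabpa) and 8.32 (Tfam), since that length is shorter.

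Signs changed only for differences that were not called. In KO against Ctrl sham, the term for numbers starting with 33 gave -0.037 (Ppargc1a), -0.062 (Ppargc1b), -0.013 (Esrra), -0.047 (Ppara) and -0.060 (Nrf1). With single libraries left out this contrast ran from -0.030 to 0.22 (Ppargc1a), -0.018 to 0.16 (Ppargc1b), -0.019 to 0.11 (Perm1), -0.0073 to 0.043 (Esrra), -0.025 to 0.066 (Esrrb), -0.082 to 0.046 (Esrrg), -0.076 to 0.14 (Ppara) and -0.016 to 0.11 (Nrf1). In KO TAC against Ctrl TAC, the term for the series starting with 25 gave 0.0008 (Ppargc1b) and 0.035 (Esrrg), and without Ctrl TAC 2 and KO TAC 4 Esrrb had 0.038 and Gabpa -0.013. Single libraries left out gave -0.077 to 0.024 (Ppargc1b), -0.10 to 0.014 (Esrrb), -0.12 to 0.011 (Esrrg) and -0.0098 to 0.031 (Gabpa). In the interaction, Ppargc1b had 0.024 (term for 33), Esrrb 0.021 (Ctrl TAC 2 and KO TAC 4 left out), and Esrrg 0.0048 (no filter), 0.074 (term for 25) and 0.036 (both left out). Single libraries left out gave -0.097 to 0.050 (Esrrg) and -0.049 to 0.082 (Nrf1). The cause of these changes was not tested. Over all genes, the 489 called in KO TAC against Ctrl TAC became 12 with the series term, 63 without Ctrl TAC 2, 84 without KO TAC 3, 109 without Ctrl TAC 2 and KO TAC 4, 152 without KO TAC 2, 154 in the 2-group fit, 190 without Ctrl TAC 3, 258 without KO TAC 1, 285 without a filter and 1180 in DESeq2. The 2 called in the interaction became 132 in DESeq2 and 0 to 18 with single libraries left out.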
